A study of Mus musculus with 20 samples.

Results

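Nephron progenitor cells (NPCs) that had lost α-catenin were compared directly with NPCs in which 4 cadherins had been targeted at once, the quadruple cadherin knockout (QCKO). The comparison used the 4 α-catenin KO and the 4 QCKO libraries of a series of 20 bulk mRNA-seq libraries, chosen by the knockout named in the labels, with the CHIR dose as a factor. No CTRL or β-catenin KO (*Ctnnb1* targeted) library entered the test itself. Libraries of these other groups of the series entered a fit only where all 20 libraries are named. The question was whether removal of the cytoplasmic linker and removal of the membrane receptors of the same adhesion complex left the same transcripts behind.

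All NPCs came from E16.5 mouse kidneys of crosses between the SWR/J strain and mice with ubiquitous Cas9-eGFP at ROSA26, so Cas9 was present in every group. The cells grew on Matrigel in NPC expansion medium and received sgRNA together with *mCherry* mRNA by lipofection. In α-catenin KO the sgRNA targeted *Ctnna1*, and in QCKO 4 sgRNAs targeted *Cdh2*, *Cdh3*, *Cdh4* and *Cdh11*. After a knockout period of 48 h the cells were held for a further day in low (1.25 µM) or high (5 µM) CHIR, an inhibitor of GSK3 that stabilizes β-catenin, and mCherry+ cells were sorted. Each knockout had 2 libraries at each dose. The libraries are edited populations and not clones, and they hold whatever mixture of alleles Cas9 left. The total amount of sgRNA per well was the same in both, so each QCKO guide was given at a lower amount than the single *Ctnna1* guide, and the number of guides and the genes targeted cannot be told apart. CTRL libraries, which received a sgRNA against GFP, are shown beside the knockouts as a level only, with 3 libraries per dose.

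The dates in the sample labels were not the same for both knockouts. Replicate numbers stand for these dates, which the labels do not tie to a step of the experiment, and α-catenin KO has dates 1 and 3, whereas QCKO has dates 2 and 3. Only date 3 holds both knockouts, so outside that date the knockout and the date cannot be told apart. For some genes, values on date 3 or from a fit with the date as a block are therefore given as well.

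Classical cadherins are calcium-dependent receptors that bind the same or related cadherins on the neighbouring cell. Their cytoplasmic tails bind β-catenin, which binds α-catenin, and α-catenin ties the complex to actin filaments. β-catenin is also the transcriptional partner of Lef and Tcf factors in Wnt signalling, which starts nephron formation from Six2+ NPCs in the embryonic kidney, so the NPC is a cell in which loss of adhesion and loss of Wnt-driven transcription can be examined apart.

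The sgRNAs against 3 of the cadherins are shown because they define the QCKO libraries. They are written 5′ to 3′, are 20 bases long, and carry in capitals the 10 bases next to the PAM, the seed that tolerates mismatches least. *Cdh11* and *Cdh3* both lie on chromosome 8, and *Cdh4* lies on chromosome 2.
Cdh11: caccagcacaGGGUCAGGCC
Cdh3: ccgaugaagcCCGCUCGGUA
Cdh4: ccauccccagGCCCACCGUG
The guides share no target, and their GC content was 70.0% for *Cdh11*, 65.0% for *Cdh3* and 75.0% for *Cdh4*.

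The values are normalized counts, that is, reads per gene divided by one size factor per library, and 16411 genes with a mean of at least 10 over the 8 libraries were tested. The libraries held 18124772 to 24236309 gene-assigned reads, with a median of 22344826. NPC identity was checked on 7 self-renewal markers. *Six2*, the transcription factor that maintains the progenitor state, was at 1468 and 1384 normalized counts in α-catenin KO (dates 1 and 3) and at 1318 and 1373 in QCKO (dates 2 and 3) in low CHIR. At the high dose it was at 41.2 and 63.5 in α-catenin KO and at 27.8 and 44.0 in QCKO. In low CHIR both α-catenin KO libraries lay above both QCKO libraries, and in high CHIR the knockouts overlapped. Markers of other kidney cells could be checked only in part, because symbols were available for 5 of 12 ureteric epithelium genes, 1 of 10 stroma genes, 1 of 8 endothelium genes and none of 8 leukocyte genes. *Wnt11*, which marks ureteric tips, was between 0 and 9.02 normalized counts in every library, and *Tek*, an endothelial receptor, was at 0.867 to 7.64 over the low CHIR libraries and at 92.7 to 383 over the high CHIR libraries.

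The targeted genes came first, since they check the labels. *Ctnna1*, which encodes α-catenin, was the only gene that passed the limma test between the knockouts. In low CHIR it was at 3599 and 3790.2 normalized counts in α-catenin KO and at 8327 and 8939 in QCKO. In high CHIR the values were 3564 and 3621 in α-catenin KO and 8915 and 9631 in QCKO. Every α-catenin KO library therefore lay below every QCKO library, and α-catenin KO held 42.8% of the QCKO level in low CHIR and 38.7% in high CHIR. The transcript fell by 1.30 on the log2 scale over both doses (SE 0.08, limma adjusted p = 0.0016). By dose it fell by 1.22 in low CHIR (limma adjusted p = 0.046) and by 1.37 in high CHIR (limma adjusted p = 0.019). These calls by dose were less stable than the call over both doses. The high CHIR call was lost whichever library was left out, and the low CHIR call was lost with edgeR (adjusted p = 0.064) and without any library other than the high CHIR ones of α-catenin KO. Both were lost with the libraries of that dose alone. On date 3 alone the log2 differences were −1.24 and −1.41. CTRL libraries lay at 7749 to 10082 in low and 5817 to 9314 in high CHIR, so QCKO was within or just above that range and α-catenin KO below it.

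*Cdh11* and *Cdh2*, cadherins present in uninduced NPCs, were lower in every QCKO library than in every α-catenin KO library of the same dose. *Cdh11* was at 6277 and 4565 normalized counts in α-catenin KO against 2519 and 1818 in QCKO in low CHIR. The high CHIR libraries had 2008 and 1443 against 1005 and 589. α-Catenin KO thus had 2.5 times the QCKO level in low CHIR and 2.17 times in high CHIR. The log2 difference over both doses was 1.23 (SE 0.205), which did not pass the limma test across genes (adjusted p = 0.87) and passed with DESeq2 (adjusted p = 7.8e-07) and with the date as a block (log2 difference 1.31, limma adjusted p = 0.00042). The exact permutation test gave a two-sided p = 0.056, the smallest that its 36 arrangements allow. It permuted the labels separately in each dose, so libraries of one date counted as independent between doses. With whole dates as units so small a p-value could not be reached. On date 3 the log2 differences were 1.33 and 1.29. The fit of all 20 libraries with the block gave 1.01, which did not pass (limma adjusted p = 0.47). CTRL libraries held 3594 to 5112 in low and 1883 to 2092 in high CHIR, above both QCKO libraries at each dose.

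*Cdh2*, which encodes N-cadherin, was at 3378 and 3613 normalized counts in α-catenin KO against 2592 and 2071 in QCKO in low CHIR. In high CHIR it was at 1447 and 2190.4 against 1222 and 1236. The ratio was 1.5 in low and 1.48 in high CHIR, with no overlap of the knockouts at either dose. CTRL lay at 2241 to 4920 in low and 989 to 2439 in high CHIR, a range that held all 4 α-catenin KO libraries and 3 of the 4 QCKO libraries. The log2 difference of 0.56 (SE 0.14) did not pass the limma test (adjusted p = 0.87) or DESeq2 (adjusted p = 0.11), and it passed with the date as a block (log2 difference 0.81, limma adjusted p = 0.026). With all 20 libraries in the fit and the block it was 0.36 and did not pass (limma adjusted p = 1).

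*Cdh3* and *Cdh4*, the cadherins whose transcripts were higher in high CHIR, overlapped between the knockouts in low CHIR, and *Cdh4* also in high CHIR. *Cdh3*, P-cadherin, was at 304 and 799 normalized counts in α-catenin KO and at 535 and 829 in QCKO in low CHIR. High CHIR gave 3632 and 5497 against 3347 and 3481, so both α-catenin KO libraries lay above both QCKO libraries at that dose, with a ratio of 1.34. The log2 difference over both doses was −0.02 (SE 0.29, limma adjusted p = 0.99) and its sign depended on the fit, being 0.30 with the date as a block. *Cdh4*, R-cadherin, was at 2306 and 2353 in α-catenin KO and at 1796 and 2512 in QCKO in low CHIR. At 5 µM CHIR it was at 8427 and 8147 against 10276 and 6666. Its log2 difference was 0.07 (SE 0.15, limma adjusted p = 0.97). Transcript levels do not show whether a sequence was edited, so the 4 cadherin guides cannot be ranked by these counts.

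**Figure D1:**
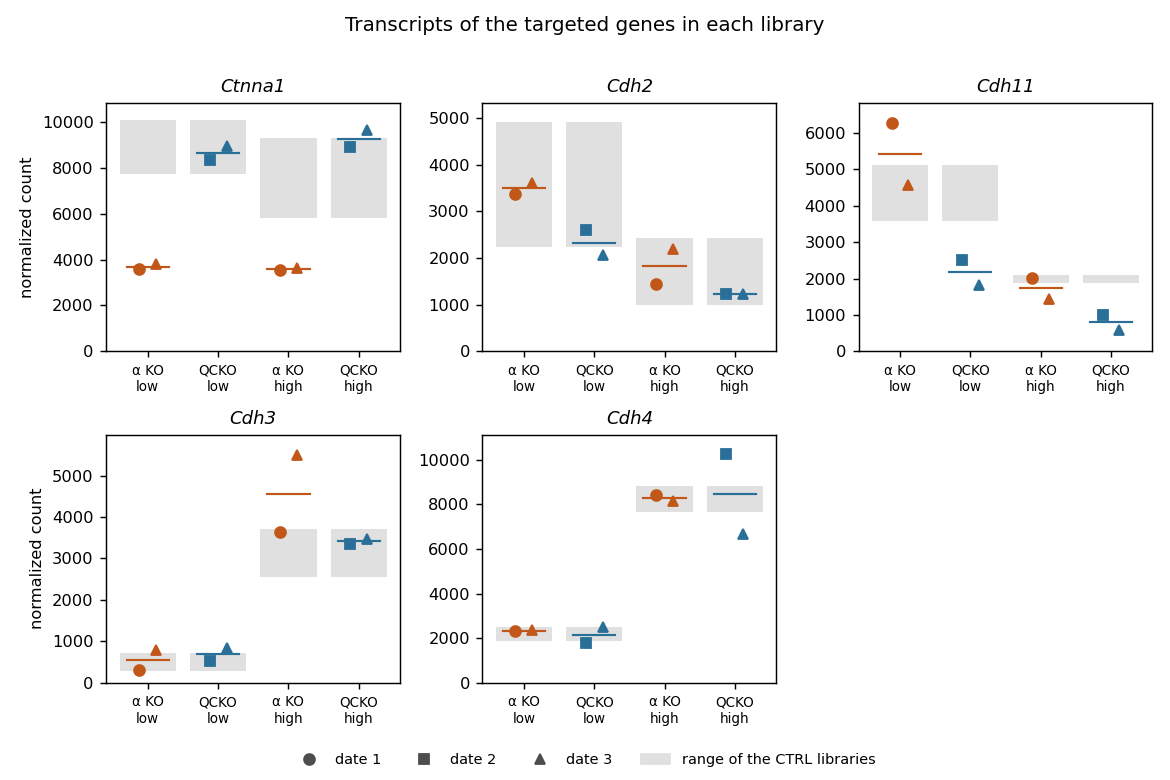
Normalized counts (y axis, linear from 0) of *Ctnna1*, *Cdh2*, *Cdh11*, *Cdh3* and *Cdh4* in each α-catenin KO (orange) and QCKO (blue) library at low and high CHIR. Point shapes give the date, horizontal lines the mean of 2 libraries and grey boxes the range of the 3 CTRL libraries at that dose. *Ctnna1* was lower in α-catenin KO than in QCKO and *Cdh11* and *Cdh2* were lower in QCKO than in α-catenin KO in every library, whereas *Cdh4* overlapped at both doses and *Cdh3* in low CHIR.

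Across all genes few differences between the knockouts exceeded the spread between libraries. Over both doses 1 of 16411 genes passed the limma test at adjusted p under 0.05 and an absolute log2 difference over 0.5 (0.00609% of genes tested), and that gene was *Ctnna1*. It was also the 1 gene called in low CHIR (0.00609%) and the 1 gene called in high CHIR (0.00609%). At an unadjusted p under 0.05, 904 genes stood out over both doses, 641 in low and 276 in high CHIR. edgeR called 1 gene over both doses, 0 in low and 1 in high CHIR. DESeq2 called 11 genes over both doses (0.067%), 6 higher (0.0366%) and 5 lower (0.0305%) in α-catenin KO, and it called 8 in low (0.0487%) and 2 in high CHIR (0.0122%). The median log2 difference over all genes was −0.01. Genes in which the knockouts overlapped at neither dose made up 2.93% with α-catenin KO higher and 4.48% with QCKO higher.

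With the date as a block, limma called 112 genes over both doses (0.682%), 103 higher and 9 lower in α-catenin KO. By dose the block gave 52 genes in low CHIR (0.317%) and 62 in high CHIR (0.378%), and DESeq2 with the block gave 138 genes over both doses (0.841%), 99 in low (0.603%) and 77 in high CHIR (0.469%). Over both doses these fits compare the knockouts within date 3 alone, whereas by dose the libraries of dates 1 and 2 also enter. Fitted on all 20 libraries, where CTRL and β-catenin KO libraries link the dates, limma with the block called 1 gene over both doses (0.00609%), *Ctnna1*, and 1 each in low and high CHIR. The β-catenin KO libraries also enter the spread between libraries in that fit. The 112 genes of the block fit over both doses were chosen by their date 3 libraries, and their levels on that date describe the choice. In 57 of the 103 higher genes the date 1 libraries of α-catenin KO, which did not set the difference, lay below the QCKO mean at both doses, and in 7 of the 9 lower genes they lay above it. The knockouts did not overlap in 7 of the 103 (2.93% of all genes, α-catenin KO higher) and in 2 of the 9 (4.48%, QCKO higher), counts that the choice by date 3 raises.

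Of the 112 genes 10 had a symbol, and 6 of these are described elsewhere (*Ctnna1*, *Cdh11*, *Cdh2*, *Tpm1*, *Msx2* and *6030452D12Rik*). The other 4, named after their values were seen, were *Krt8*, *Krt8-ps*, *Cldn3* and *Stat3*. *Krt8*, a keratin of simple epithelia such as the ureteric bud, was at 84.3 and 482 normalized counts in α-catenin KO in low CHIR and at 229 and 466 in high CHIR. In QCKO it was at 191 and 86.8 in low and at 120 and 102 in high CHIR. With the block its log2 difference was 2.32 (limma adjusted p = 0.0046), and without it 1.10 (limma adjusted p = 0.87). *Krt8-ps* may share reads with *Krt8*. *Cldn3*, a tight junction claudin, was at 10.3 and 123 in α-catenin KO in low CHIR and at 10.3 and 168 in high CHIR, against 30.9 to 61.6 over the 4 QCKO libraries. *Stat3*, a cytokine-responsive transcription factor, was at 687 and 2325 in low and at 424 and 1669 in high CHIR, against 844 to 2088 in QCKO. Without the block the limma log2 differences of *Cldn3* and *Stat3* turned negative, at −0.15 in place of 2.03 and at −0.36 in place of 0.68, and neither passed (limma adjusted p = 0.99 and 0.94). In all 4 the date 3 libraries of α-catenin KO, which set the call, were above those of date 1 at both doses.

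The ureteric epithelium markers did not all follow these libraries. *Cdh1*, the epithelial E-cadherin, was at 35.3 and 296 normalized counts on dates 1 and 3 of α-catenin KO in low CHIR and at 77.3 and 310 in high CHIR, and QCKO lay between 112 and 254. *Hoxb7*, a homeobox gene of the ureteric bud, was at 225 and 333 in low and at 621 and 815 in high CHIR in α-catenin KO. *Gata3*, a transcription factor of the nephric duct lineage, was lower on date 3 than on date 1 in low CHIR (73.1 and 33.9) and higher in high CHIR (340.1 and 702). The 5 ureteric markers with a symbol summed to 417 to 1147 in α-catenin KO and 586 to 824 in QCKO in low CHIR, and to 1277 to 2297 and 1827 to 2113 in high CHIR. Without the block *Krt8* had a positive and *Cdh1*, *Hoxb7* and *Gata3* a negative log2 difference over both doses, and none of the 4 passed limma. Their median of −0.30 turned to 0.46 with the block, under which *Krt8* passed limma and also DESeq2 (log2 difference 2.38, adjusted p = 5.1e-08). *Wnt11* stayed under the filter. Their part in the 103 genes was not tested. In bulk samples fewer cells of a type and less RNA per cell cannot be told apart.

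The libraries of date 3 were the nearest pair of the experiment. Over the 500 most variable genes, α-catenin KO and QCKO of date 3 lay at a Euclidean distance of 22.8 in low CHIR and 24.1 in high CHIR on the log2 scale. α-Catenin KO of date 1 and of date 3 were 40.4 apart in low and 38.9 in high CHIR. QCKO of date 2 and of date 3 were 30.0 and 29.5 apart. The different knockouts of one date were therefore closer to each other than either knockout was to itself on another date, at both doses, and the mean distance between doses was 86.9. Over all tested genes the order was the same for α-catenin KO and QCKO of date 3, which lay at 64.2 and 66.8 against 88.8 and 93.8 between the dates of α-catenin KO and 72.8 and 70.5 between those of QCKO.

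**Figure D2:**
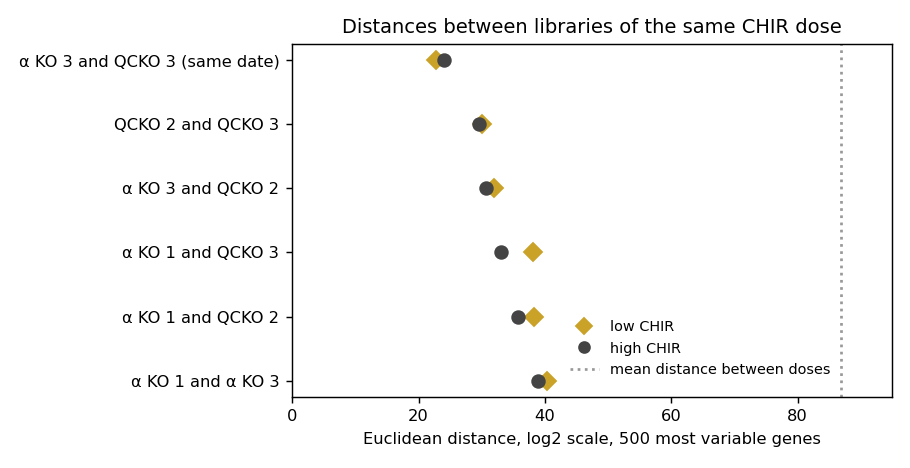
Euclidean distance (x axis, log2 scale, 500 most variable genes) between libraries of the same CHIR dose, with diamonds for low and circles for high CHIR and the date number after each knockout. The dotted line is the mean distance between libraries of different doses, 86.9. The α-catenin KO and QCKO libraries of date 3 were nearest, at 22.8 and 24.1, and the α-catenin KO libraries of dates 1 and 3 farthest apart, at 40.4 and 38.9.

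Most measured transcripts of the p53 response had lower levels in α-catenin KO than in QCKO. p53 is the transcription factor that DNA breaks, including those made by Cas9, are known to activate, and its targets halt the cell cycle, repair DNA or start cell death. Of 18 listed targets 10 had a symbol, and all 10 had a negative log2 difference over both doses, that is, a lower mean of log2(normalized count + 1) in α-catenin KO. For *Pmaip1* this rests on the scale, since its mean normalized count in low CHIR was 104 in α-catenin KO against 96.3 in QCKO, and edgeR (0.016) and DESeq2 (0.011) gave a positive log2 difference. None of the 10 passed limma, and 4 had an unadjusted p under 0.05. Their median log2 difference was −0.50, against −0.01 over all genes, with −0.66 in low and −0.33 in high CHIR. In 3 of 10 no α-catenin KO library reached a QCKO library of the same dose, against 4.48% of all genes. In low CHIR alone this held for 7 of 10 (20.3% of all genes) and in high CHIR alone for 3 of 10 (12.9%). Within date 3 the difference was negative in 9 of 10 members in low and 8 of 10 in high CHIR. The members and the list were taken up with earlier results of these data known, so the counts describe the list and are not independent evidence of its direction.

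*Cdkn1a*, which encodes the cell cycle inhibitor p21, was at 1136 and 2029 normalized counts in α-catenin KO against 3121 and 4033 in QCKO in low CHIR. At the high dose it was at 2969 and 2643 against 4359 and 4558. QCKO therefore had 2.26 times the α-catenin KO level in low and 1.59 times in high CHIR, with no overlap. CTRL lay at 826 to 2532 in low and 1458 to 2877 in high CHIR, so all QCKO libraries were above all CTRL libraries of their dose. Its log2 difference was −0.95 (SE 0.18, limma adjusted p = 0.87). DESeq2 called it over both doses (log2 difference −0.91, adjusted p = 0.00048) and in low CHIR (DESeq2 adjusted p = 0.006), not in high CHIR (DESeq2 adjusted p = 1). The exact permutation test gave its smallest possible two-sided p = 0.056, again with the doses of one date taken as independent. On date 3 the differences were −0.99 and −0.79. With all 20 libraries and the date block the value was −0.30.

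*Sesn2*, a stress-induced regulator of metabolism, was at 345 and 404 normalized counts in α-catenin KO against 718 and 648 in QCKO in low CHIR. In high CHIR the values were 215 and 174 against 246 and 319.8. This gave a log2 difference of −0.70 (SE 0.15, limma adjusted p = 0.87). *Eda2r*, a death-receptor family member, was at 213 and 423 against 517 and 564 in low CHIR. The high CHIR libraries had 119.8 and 88.7 against 149 and 206, a log2 difference over both doses of −0.80 (SE 0.24, limma adjusted p = 0.87). Neither gene overlapped between the knockouts at either dose. *Ccng1*, cyclin G1, was at 1471 and 2173 against 2877 and 3091 in low CHIR and overlapped in high CHIR, at 936 and 687 against 868 and 1256. Its log2 difference was −0.56 (SE 0.17, limma adjusted p = 0.87). The other 6 members had log2 differences of −0.93 (*Fas*, a death receptor), −0.43 (*Zmat3*, an RNA-binding protein), −0.33 (*Trp53inp1*), −0.32 (*Polk*, a translesion DNA polymerase), −0.31 (*Plk2*, a kinase) and −0.28 (*Pmaip1*, the pro-apoptotic protein Noxa). Their libraries overlapped in at least 1 dose, and *Pmaip1* turned positive with the date block (0.85). Without single libraries *Fas* ranged from −1.70 to −0.17, *Zmat3* from −0.66 to −0.21, *Trp53inp1* from −0.51 to −0.14, *Polk* from −0.495 to −0.145 and *Plk2* from −0.50 to −0.12.

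Set beside the CTRL libraries, 6 of the 10 transcripts were above the CTRL maximum in both QCKO libraries in low CHIR (9.69% of all genes tested, 11.8% of genes with a symbol), against 0 in α-catenin KO (6.33% and 5.61%). At the high dose 7 of 10 did so in QCKO (13.6% and 27.4%) and 5 of 10 in α-catenin KO (9.38% and 19.7%). At both doses 4 transcripts (*Ccng1*, *Cdkn1a*, *Eda2r* and *Sesn2*) were above CTRL in every QCKO library, and none was in every α-catenin KO library, against 2.98% and 0.646% of all genes and 6.62% and 1.44% of genes with a symbol. The members have a symbol because they passed one of the authors' thresholds, in some cases possibly against CTRL, so these counts are a description. The 10 transcripts summed to 5934 to 8653 normalized counts in α-catenin KO and 11665 to 13057 in QCKO in low CHIR. In high CHIR they summed to 6467 to 7012 and 8430 to 9986. The number of guides, the amount of each guide and the genes cut differed together between the knockouts, and their part in these values was not tested.

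**Figure D3:**
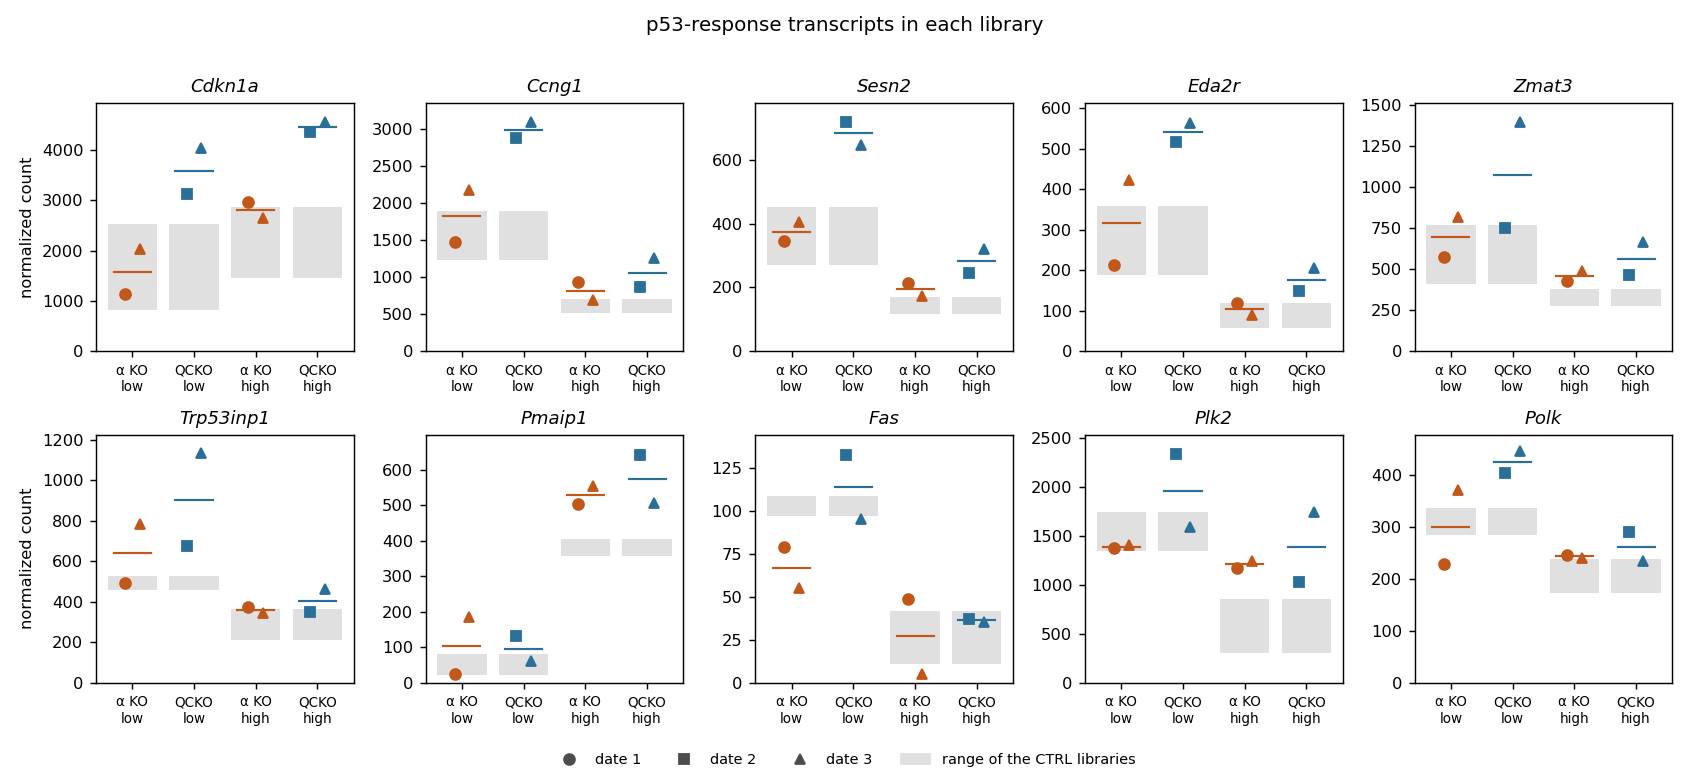
Normalized counts (y axis, linear from 0) of the 10 p53-response transcripts with a symbol in each α-catenin KO (orange) and QCKO (blue) library at low and high CHIR. Point shapes give the date, horizontal lines the mean of 2 libraries and grey boxes the range of the 3 CTRL libraries. *Cdkn1a*, *Sesn2* and *Eda2r* were higher in every QCKO library than in every α-catenin KO library of the same dose, and *Pmaip1*, *Fas* and *Plk2* overlapped at one dose or both.

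Because the list is defined by a transcription factor, the start sites of its members were searched for the p53 half-site, the 10-base unit that occurs as a pair in p53 response elements. Of the 10 members 7 had a RefSeq promoter window (GRCm38.p6, 250 bases before to 50 after the start site), and 3 of these held a half-site on either strand. By window it was 3 of the members' 9 windows, against 8.36% of the 32851 windows of all genes. The windows are shown with 10 bases of flank on each side, 5′ to 3′ on the strand of the gene, with the half-site in capitals, because these letters are all that the match rests on.
Cdkn1a, chr17:29090896-29090925, plus strand: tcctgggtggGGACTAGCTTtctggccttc
Cdkn1a, chr17:29090918-29090947, plus strand: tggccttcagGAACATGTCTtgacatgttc
Ccng1, chr11:40755452-40755481, minus strand: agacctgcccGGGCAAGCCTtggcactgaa
Polk, chr13:96519399-96519428, minus strand: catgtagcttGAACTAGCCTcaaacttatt
The half-sites began at positions −73 and −51 from the start site of their window in *Cdkn1a*, −185 in *Ccng1* and −231 in *Polk*. *Cdkn1a* and *Polk* had 2 windows each, of which only 1 held a match. A match is a description of the letters in a short window and shows no binding.

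Several transcripts outside the lists of targets were named by DESeq2. *Tpm1*, which encodes the actin-binding protein tropomyosin 1, was at 3236 and 3312 normalized counts in α-catenin KO against 2178 and 2026 in QCKO in low CHIR. In high CHIR it was at 3611 and 2650.3 against 1583 and 1616. No library overlapped, and all α-catenin KO libraries were above the CTRL range of 2270.5 to 2518 in low and 1516 to 2087 in high CHIR. The log2 difference was 0.80 (SE 0.11). It did not pass limma (adjusted p = 0.31), and it passed DESeq2 over both doses (adjusted p = 3.3e-06) and in high CHIR (adjusted p = 0.0017), and limma with the date block (log2 difference 0.71, adjusted p = 0.041). The fit of all 20 libraries with the block gave 0.67, which did not pass (limma adjusted p = 0.93).

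*Anxa3*, an annexin that binds membrane phospholipids in the presence of calcium, was at 512 and 664 in α-catenin KO against 344 and 413 in QCKO in low CHIR. High CHIR gave 363 and 236 against 90.6 and 146, again without overlap. The log2 difference was 0.985 (SE 0.21, limma adjusted p = 0.87, DESeq2 adjusted p = 0.0083). With the date as a block it passed neither limma (log2 difference 0.69, adjusted p = 0.42) nor DESeq2 (log2 difference 0.74, adjusted p = 0.43). *Msx2*, a homeobox transcription factor, differed in low CHIR, at 60.2 and 45.0 normalized counts in α-catenin KO against 14.7 and 9.64 in QCKO. At 5 µM CHIR it was at 371 and 329 against 345 and 236, and the knockouts overlapped. α-Catenin KO had 4.31 times the QCKO level in low and 1.2 times in high CHIR. DESeq2 called *Msx2* over both doses (adjusted p = 0.023) and in low CHIR (adjusted p = 0.0058), and limma called it only with the date block (log2 difference 1.29 against 1.16 without, adjusted p = 0.046 against 0.87). With all 20 libraries and the block the log2 difference was 2.15 and did not pass (limma adjusted p = 1).

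*6030452D12Rik* was detected at 3.03 to 3.86 normalized counts, or 3 to 4 reads, in each α-catenin KO library. In QCKO it was at 58.1 and 93.5 in low CHIR and at 19.3 and 20.6 in high CHIR, so that all QCKO libraries lay above all α-catenin KO libraries. CTRL held 0.893 to 3.25 in low and 3.13 to 11.7 in high CHIR, below QCKO. Its log2 difference was −3.16 (SE 0.35). It did not pass limma (adjusted p = 0.078), and it passed DESeq2 (log2 difference −3.50, adjusted p = 6.9e-05) and limma with the block (log2 difference −3.42, adjusted p = 0.012). In the fit of all 20 libraries with the block it was −2.96 (limma adjusted p = 0.15). The fold rests on very few reads in α-catenin KO.

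*Matn1*, a cartilage matrix protein, was called by DESeq2 in low CHIR alone (adjusted p = 0.00037). It was at 77.4 and 150.2 normalized counts in α-catenin KO against 356 and 1003 in QCKO, a ratio of 5.97, and at 0 to 3.74 in every high CHIR library. Without the date 3 libraries of QCKO its log2 difference over both doses was −1.18 in place of −1.82. The DESeq2 calls also included unnamed genes. Among those lower in α-catenin KO, ENSMUSG00000086411 was at 199 and 293 against 739 and 476 in low CHIR (DESeq2 log2 difference over both doses −0.97, adjusted p = 0.0041), and with the block it did not pass (DESeq2 log2 difference −0.62, adjusted p = 0.56). ENSMUSG00000098973 was at 7611 and 8592 against 15944 and 13683 in low CHIR and at 11125 and 8921 against 11966 and 13892 in high CHIR, without overlap. It passed DESeq2 over both doses (log2 difference −0.61, adjusted p = 0.0037) and kept its call with DESeq2 and the block (log2 difference −0.63, adjusted p = 0.021), and it did not pass limma (adjusted p = 0.87).

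*Plec*, the cytoskeletal crosslinker plectin, stood out by its unadjusted p. It was at 898 and 1224 normalized counts in α-catenin KO against 1693 and 1566 in QCKO in low CHIR, and at 860.5 and 1103 against 1481 and 1539 in high CHIR. All QCKO libraries were above the CTRL range of 903 to 1354 in low and 754 to 925 in high CHIR. The log2 difference of −0.63 (SE 0.13) did not pass limma (adjusted p = 0.87) and was −0.42 with the date block. Other genes with small unadjusted p and values above α-catenin KO in QCKO were *Gm28438* (−0.42), *Pomgnt2*, an enzyme of dystroglycan glycosylation (−0.99), *Dglucy*, a D-glutamate cyclase (−0.82), *Tent5c*, a poly(A) polymerase (−0.81), *Dcxr*, a reductase (−0.50), and *Gaa*, lysosomal α-glucosidase (−0.46). *Pomgnt2* was −0.62 with the block. On the α-catenin KO side were *Pwwp3b* (1.01), *St3gal4*, a sialyltransferase (0.70), *Psmd5*, a proteasome assembly factor (0.55), *Smim30* (0.42) and *Med4*, a Mediator subunit (0.38). The limma adjusted p was 0.87 for each. With all 20 libraries and the block *Pwwp3b* was 0.53, *St3gal4* 0.44 and *Psmd5* 0.29, and *Smim30* was 0.27 with the block on the 8 libraries. DESeq2 with that block called *Psmd5* (log2 difference 0.57, adjusted p = 0.018).

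**Figure D4:**
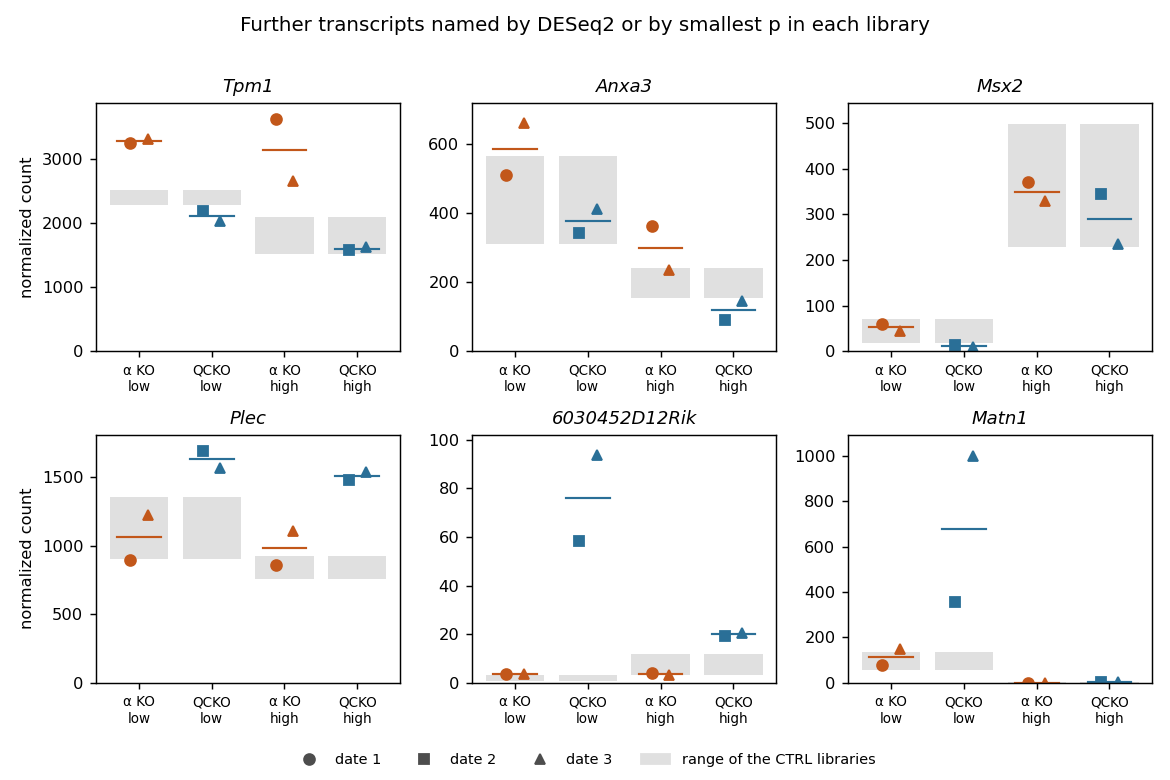
Normalized counts (y axis, linear from 0) of *Tpm1*, *Anxa3*, *Msx2*, *Plec*, *6030452D12Rik* and *Matn1* in each α-catenin KO (orange) and QCKO (blue) library at low and high CHIR, with the date as point shape, the mean of 2 libraries as a line and the CTRL range as a grey box. *Tpm1* and *Anxa3* were higher in every α-catenin KO library and *Plec* and *6030452D12Rik* in every QCKO library of the same dose, whereas *Msx2* overlapped in high CHIR.

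Lists around the adhesion complex were tested by limma without the block. None of 4 tested catenins and junction partners passed, with a median log2 difference of 0.00 (−0.18 with the date block). The members were *Ctnnal1*, an α-catenin relative (−0.17), *Ctnnd2*, δ-catenin (0.53), *Dsc2*, a desmosomal cadherin (0.18), and *Nectin2*, a nectin that joins cells beside cadherins (−0.49). None of 3 other cadherins passed, with log2 differences of −0.30 for *Cdh1*, 0.11 for *Cdh13* and −0.37 for *Cdh15*, and their median turned from −0.30 to 0.19 with the block.

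None of 9 tested YAP targets, which respond to cell density and tension, passed, and 7 had a positive and 2 a negative log2 difference with a median of 0.07, which turned to −0.09 with the date block. *Ccn1*, a matricellular protein, was at 926 and 782 normalized counts in α-catenin KO against 661 and 504 in QCKO in low CHIR, and at 1096 and 763 against 706 and 1120 in high CHIR. Its log2 difference was 0.30 (limma adjusted p = 0.88) and 0.04 with the date block. On date 3 the differences were 0.63 in low and −0.55 in high CHIR. None of 6 tested SRF and actin genes passed limma without the block, with a median of 0.14 that turned to −0.16 with the block. Of these *Tpm1*, which passed DESeq2 and limma with the block as given above, did not overlap in the direction of α-catenin KO (2.93% of all genes). *Fos* (−0.37), an immediate-early transcription factor, and *Flna* (−0.18), the actin crosslinker filamin A, did not overlap in the direction of QCKO (4.48% of all genes). *Fos* was −0.20 with the date block.

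No Wnt readout passed limma between the knockouts. *Axin2*, the negative-feedback target of β-catenin, was at 42.2 and 56.0 normalized counts in α-catenin KO against 74.6 and 68.5 in QCKO in low CHIR. At the high dose it was at 413 and 490 against 575 and 549.9. It did not overlap, and its log2 difference of −0.43 (SE 0.16) did not pass limma (adjusted p = 0.87). With the date block it was −0.225, and on date 3 the differences were −0.285 and −0.166. Of 7 tested Wnt feedback genes and direct targets 5 had a negative and 2 a positive log2 difference, none passed, and the median was −0.21. Of 7 tested induction genes 6 were negative and 1 was positive, none passed, and the median was −0.34. *Pax2*, a transcription factor of the nephric lineage, was the 1 induction gene without overlap, at 281 and 366 against 400 and 529 in low CHIR and at 1033 and 1040 against 1134 and 1181 in high CHIR (log2 difference −0.34, SE 0.13, limma adjusted p = 0.87). Genes without overlap and with QCKO higher, as *Axin2* and *Pax2* were, made up 4.48% of all genes. The 7 self-renewal markers had a median of 0.12, and none passed. Both tested proliferation genes, *Birc5* and *Pcna*, had log2 differences of 0.21 and passed no test, and the interferon-response factor *Irf7* (0.30) did not pass either. With the date block in limma *Birc5* was at 0.16, *Pcna* at 0.095 and *Irf7* at 0.04.

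The response to CHIR was compared as high against low CHIR within each knockout. In α-catenin KO 1210 genes passed limma (7.37% of genes tested), 672 higher (4.09%) and 538 lower (3.28%) in high CHIR. In QCKO 1292 passed (7.87%), 672 higher (4.09%) and 620 lower (3.78%). With the date as a block 2654 genes (16.2%) and 2692 genes (16.4%) passed. Without the block, 912 genes were called in both, 75.4% of the α-catenin KO list and 70.6% of the QCKO list, and all 912 had the same direction. A further 298 genes were called in α-catenin KO alone and 380 in QCKO alone. Of the 1590 genes called in either knockout, 1588 had the same sign in both, the median absolute difference between the responses was 0.275 on the log2 scale, and 89.7% differed by less than 1. Across all tested genes the responses had a Pearson r of 0.873, a description over genes, which are not independent. The knockouts share no library, but both hold libraries of date 3.

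All 7 self-renewal markers fell with CHIR in both knockouts and passed limma, against 3.28% of all genes tested in α-catenin KO and 3.78% in QCKO. List members have a symbol because they passed a threshold of the authors, in some cases possibly between low and high CHIR in CTRL. Counts of list members that respond to CHIR are therefore a description. The log2 change of *Six2* was −4.77 in α-catenin KO (limma adjusted p = 5.4e-05) and −5.23 in QCKO (limma adjusted p = 3.7e-05). *Meox2*, a homeobox factor of the uninduced cap mesenchyme, had log2 changes of −6.25 and −6.92. All 7 tested induction genes, of 11 listed, rose in both and passed limma, against 4.09% of all genes tested in each knockout. *Wnt4*, the ligand that drives the epithelial transition, was at 43.9 and 123 normalized counts in low and 5212 and 5849 in high CHIR in α-catenin KO. In QCKO it was at 98.0 and 102 in low and 5664 and 4798 in high CHIR. *Jag1*, a Notch ligand of induced cells, was at 218 and 899.6 in low and 5316 and 7704 in high CHIR in α-catenin KO. In QCKO *Jag1* was at 359 and 907 in low and 4024 and 10562 in high CHIR. *Lef1*, the transcriptional partner of β-catenin, rose by 4.06 in α-catenin KO and by 4.33 in QCKO. Of the 7 tested Wnt genes, of 15 listed, 6 were called in each knockout, against 7.37% of all genes tested in α-catenin KO and 7.87% in QCKO. *Axin2*, *Lef1*, *Notum*, *Sp5* and *Tcf7* were called upwards and *Myc* downwards.

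No gene was called for a difference of CHIR response between the knockouts by limma, edgeR or DESeq2 (0 called, 0% of genes tested by limma), with 97, 104 and 58 genes at an unadjusted p under 0.05. With 2 libraries per knockout and dose the test has little power, so the absence of calls does not show equal responses. Genes were taken by smallest unadjusted p among those with a symbol whose mean reached 100, separately by the sign of the difference, α-catenin KO response minus QCKO response. *Aldh1a3*, which makes retinoic acid, had the smallest p among negative differences, tied with *Msx2*. *Aldh1a3* was at 361 and 234 normalized counts in α-catenin KO and at 113 and 155 in QCKO in low CHIR. In high CHIR the values were 5235 and 7351 against 6903 and 12825. Its response was 4.41 on the log2 scale in α-catenin KO and 6.14 in QCKO, a difference of −1.73 (SE 0.46, limma adjusted p = 1). The difference for *Msx2* was −1.74 (SE 0.47, limma adjusted p = 1). *Des*, the muscle intermediate filament desmin, had the smallest p among positive differences, with a response of −1.69 in the α-catenin KO libraries and −2.51 in the QCKO libraries (difference 0.82, SE 0.24, limma adjusted p = 1). *Pgm2l1*, *Rcn2* and *Gm28438* followed with negative differences of −0.59, −0.50 and −0.41, and *Pamr1*, *Mospd3*, *Wnk4* and *Cutal* with positive differences of 1.57, 0.66, 0.65 and 0.62. The sign does not give the size of a response, and *Pgm2l1*, for one, was at −2.52 in α-catenin KO against −1.94 in QCKO, whereas *Pamr1* was at −2.33 and −3.89. *Pamr1* was at 63.1 and 57.5 in α-catenin KO against 20.5 and 18.7 in QCKO in high CHIR, and it overlapped in low CHIR.

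**Figure D5:**
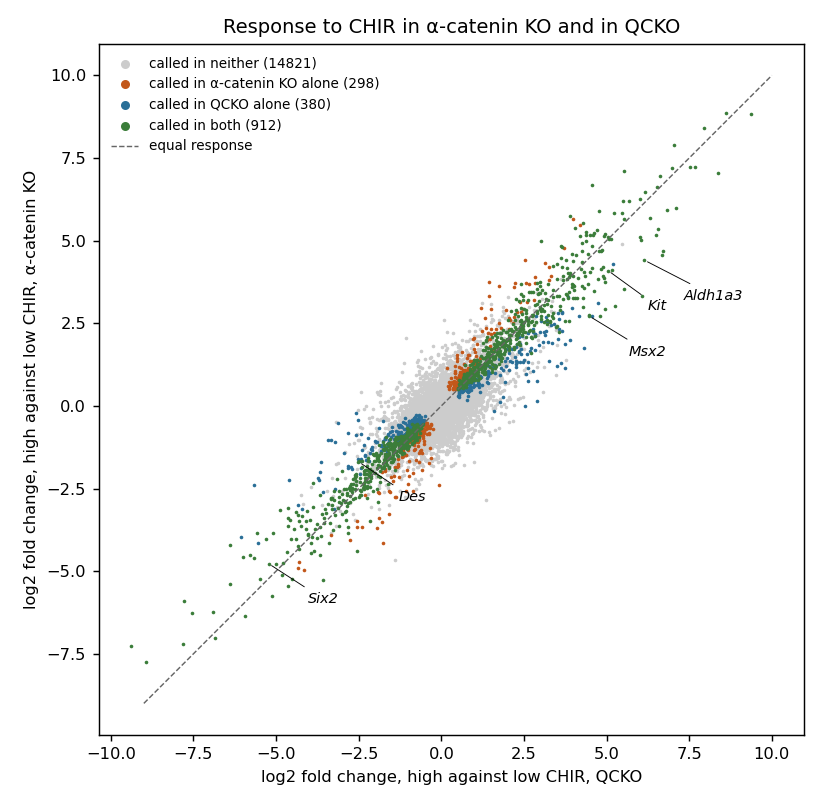
Log2 fold change between high and low CHIR of 16411 genes in QCKO (x axis) and α-catenin KO (y axis), coloured by the limma call, with the dashed line for equal responses. The 912 genes called in both lie in the upper right and lower left, *Six2* fell in both, and *Aldh1a3*, *Msx2* and *Kit* lie below the line.

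A group of 6 genes was followed because it had stood out when a knockout was set against CTRL, so its level against CTRL describes that choice. None passed the test between the knockouts. *Rasl11a*, a small GTPase, was at 3115 and 3885 normalized counts in α-catenin KO and at 5547 and 4482 in QCKO in high CHIR, with CTRL at 1032 to 1988, so every library of both knockouts was above CTRL. In low CHIR it overlapped, at 218 and 357 against 342 and 278, and its log2 difference over both doses was −0.33 (limma adjusted p = 0.87). With the date block in limma *Rasl11a* turned to 0.08, and on date 3 the differences were 0.36 in low and −0.21 in high CHIR. *Kit*, a receptor tyrosine kinase, was at 2149 and 4013 against 3995 and 4585 in high CHIR, with CTRL at 863 to 1877. *Cxcl12*, a chemokine, was at 184 and 323 against 433 and 379.7 in high CHIR, and CTRL was at 72.1 to 95.3. *Serpinb7*, a protease inhibitor, was at 959.6 and 415 against 264 and 567 in high CHIR, with CTRL at 37.4 to 72.9, and it had at most 1 read in any knockout library in low CHIR. *Cpm*, a membrane carboxypeptidase, was at 1842 and 1159 against 1583 and 1226 in high CHIR, with CTRL at 505 to 795. *Ceacam1*, a cell adhesion molecule, was at 16.7 and 10.1 against 8.45 and 8.42, with CTRL at 0.784 to 2.27. In all 6 the high CHIR libraries of both knockouts lay above the CTRL range. The log2 differences between the knockouts over both doses were −0.07 for *Kit*, −0.45 for *Cxcl12*, 0.57 for *Serpinb7*, −0.22 for *Cpm* and 0.56 for *Ceacam1*. With the date block in limma *Kit* turned to 0.35, and the others were −0.20, 0.22, −0.30 and 0.70 in the same order.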

How the data were processed

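The authors sequenced mRNA of sorted mCherry+ cells with a low-input kit that does not mark strand, so antisense transcripts cannot be told apart. The submitters' processing notes name bcl2fastq, STAR, featureCounts, Salmon and DESeq2 with GRCm38, mm10 and GRCh38, without giving roles. The deposited signal values are reads divided by 1 size factor per library. Dividing by the smallest value gave whole reads for 100% of values within 0.01, and these entered edgeR 4.0.16 and DESeq2 1.42.0. The deposited comparison tables also hold log2 ratios and p-values, which were not used. Symbols came from them, so 3884 of 16411 genes tested (23.7%) had one, and each of these had passed a threshold in a comparison of the authors. Genes without a symbol are left unnamed, including list members.

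The test was limma 3.58.1 (R 4.3.3) with a mean-variance trend on log2(normalized count + 1), which understates the change of low genes. It used 1 mean per knockout and dose, a mean of at least 10 and Benjamini-Hochberg adjustment over all genes, and genes were called at adjusted p under 0.05 and an absolute log2 difference over 0.5. Main designs, lists and members were chosen with earlier results of these data known. Named were the targeted genes, DESeq2, edgeR or limma calls, the smallest unadjusted p among genes with a symbol and a mean of at least 100, the leading members of each list, and 6 genes from comparisons with CTRL. For single genes an exact permutation test within doses was used, which takes the doses of one date as independent. Libraries with the same number share a date in the labels, whose step is not stated. Deviations of the 2 doses correlated at 0.468 for α-catenin KO and at 0.293 for QCKO, and those of the knockouts on date 3 at 0.105 and 0.0575. Fits with the date as a block, without each library, with other pseudocounts, filters and scalings were run as alternatives. The study calls the libraries of a group biological replicates, 2 per group here. Guide sequences came from the study's supplementary list. The scripts were tested on simulated data.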

Additional observations from a re-analysis of the deposited data

How the results depend on the processing

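The count of 1 gene over both doses became 112 with the replicate block, 138 with DESeq2 and the block, 11 with DESeq2, 2 with all 20 libraries and 343 within the shared date alone, a fit with 1 residual degree of freedom. Without single libraries it was 1 to 2. In low CHIR the count was 52 with the block, 99 with DESeq2 and the block, 8 with DESeq2, and 0 without the filter, with edgeR, with all 20 libraries and with the libraries of that dose alone, and 0 to 1 without single libraries. In high CHIR it was 62 with the block, 77 with DESeq2 and the block, 2 with DESeq2, and 0 with all 20 libraries, with that dose alone and without any 1 library. Alternatives chosen after seeing the data left out both libraries of a knockout from 1 date, the lone library per dose being taken to vary like the others. The counts over both doses, in low and in high CHIR were 68, 0 and 0 without α-catenin KO of date 1, 80, 30 and 3 without α-catenin KO of date 3, 0, 0 and 0 without QCKO of date 2, and 5, 3 and 3 without QCKO of date 3. *Ctnna1* lost its call without QCKO of date 2 (−1.35, limma adjusted p = 0.54) and of date 3 (−1.24, limma adjusted p = 0.15).

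CHIR calls with the block were 2654 in α-catenin KO and 2692 in QCKO, 1939 of them shared. Without single libraries they were 627 to 1077, 555 to 1407 and 493 to 806. Leaving out α-catenin KO of date 1 gave 587 in α-catenin KO and 570 shared. Leaving out QCKO of date 2 gave 581, 158 and 155, and of date 3 565, 181 and 178.

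*Cdh11* passed at 1.31 with the block and in the shared date, 1.23 with DESeq2 and 1.33 with DESeq2 and the block, and *Cdh2* at 0.81, 0.81 and 0.84 (DESeq2 and the block). *Cdh3* turned positive with the block (0.30), all 20 libraries and the block (0.50), the shared date (0.30), edgeR (0.077), DESeq2 (0.07), DESeq2 and the block (0.33), and without α-catenin KO of date 1 (0.47) or QCKO of date 3 (0.15), and without single libraries it ran from −0.37 to 0.33. *Cdh4* was −0.008 with all 20 libraries and the block and −0.089 to 0.22 without single libraries. *Pmaip1* turned positive with the block (0.85), all 20 libraries and the block (0.44), the shared date (0.85), edgeR (0.016), DESeq2 (0.011), DESeq2 and the block (1.02), without the date 1 library of α-catenin KO in low CHIR (0.46, the highest of −1.01 to 0.46 without single libraries), and without α-catenin KO of date 1 (0.50) or QCKO of date 2 (0.078). Of the p53 members 9 to 10 stayed negative under the alternatives, with medians of −0.74 to −0.36. The distance of the knockouts on date 3 over that between dates was 0.723 in low and 0.712 in high CHIR with all genes. The cause of these shifts was not tested. The block ended no call of limma between the knockouts. Over both doses it ended the DESeq2 calls of *Anxa3* and ENSMUSG00000086411, and DESeq2 with the block also called *Cdh2*, *Psmd5*, *Krt8*, *Cldn3* and *Stat3*. Depth limits *6030452D12Rik*, with 3 to 4 reads per α-catenin KO library, and *Serpinb7* and *Matn1* at one dose.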
